A study of Rattus norvegicus with 12 samples.

Results

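Renal glucose handling was followed through 8 genes, namely the sodium-coupled glucose transporters Slc5a1 and Slc5a2, the facilitated hexose transporters Slc2a1, Slc2a2, Slc2a4 and Slc2a5, and the gluconeogenic enzymes Pck1 and Fbp1. They were chosen by symbol, and every probe set that the array annotation gives to one of these symbols alone was used. This gave 8 of the 14217 genes with a probe set of their own, and 9 probe sets (Slc2a4 had 2) out of 31042 on the array. All 9 passed the filter on dim probe sets, which 18625 probe sets passed. Kidney RNA came from 12 male Zucker rats, with 1 Affymetrix array per rat and 3 rats in each of 4 groups. The groups were obese rats fed rosiglitazone, obese rats fed the control diet, lean rats fed rosiglitazone and lean rats fed the control diet. The control diet was ground chow, and treated rats had rosiglitazone mixed into it at a dose of 3 mg/kg body weight; both diets lasted 12 weeks. In the obese animals the leptin receptor is mutated, and per the labels the strain serves as a diabetes model. Rosiglitazone activates the nuclear receptor PPAR gamma, which is most abundant in fat cells. The labels give no age, and RNA of the whole tissue was used, so fewer cells of a type and less RNA per cell cannot be told apart.

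In the kidney, filtered glucose is taken back up in the proximal tubule. Slc5a2 (SGLT2) carries most of it across the luminal membrane of the early segments and Slc5a1 (SGLT1) recovers the remainder further down, both by coupling glucose to sodium. On the blood side glucose leaves through Slc2a2 (GLUT2) and, in later segments, Slc2a1 (GLUT1), while Slc2a5 (GLUT5) takes up fructose. The proximal tubule also makes glucose, chiefly from lactate and glutamine, and Pck1 and Fbp1 catalyse regulated steps of that route. Slc2a4 (GLUT4) is the insulin-responsive transporter of fat and muscle.

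Slc5a2 and Slc5a1 passed the test between obese and lean rats over both diets, described below. Neither passed with the spike-in class, also described below, in the model. Pck1 is the enzyme gene best known for hormonal control. The promoters of these genes are shown so that the regulatory sequence can be read beside the values. Each is 250 bases before to 50 bases after the start of the gene in RefSeq (GRCr8), on the gene's strand, and such a window was found for 7 of the 8 genes. The Slc5a2 window lies at chr1:192277371-192277670 on the plus strand, that of Slc5a1 at chr14:81843035-81843334 on the minus strand and that of Pck1 at chr3:182348322-182348621 on the plus strand. Capitals mark matches to the motifs searched.
Slc5a2 promoter: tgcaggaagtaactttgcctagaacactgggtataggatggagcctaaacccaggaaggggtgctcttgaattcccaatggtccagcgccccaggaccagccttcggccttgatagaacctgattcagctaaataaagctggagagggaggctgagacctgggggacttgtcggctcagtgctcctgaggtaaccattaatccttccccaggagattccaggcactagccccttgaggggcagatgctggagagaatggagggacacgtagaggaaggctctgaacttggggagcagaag
Slc5a1 promoter: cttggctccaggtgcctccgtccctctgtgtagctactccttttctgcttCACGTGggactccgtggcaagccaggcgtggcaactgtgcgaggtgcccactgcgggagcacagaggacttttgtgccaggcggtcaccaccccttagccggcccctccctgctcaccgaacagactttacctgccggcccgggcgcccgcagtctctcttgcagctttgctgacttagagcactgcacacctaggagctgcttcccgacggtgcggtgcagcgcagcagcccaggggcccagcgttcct
Pck1 promoter: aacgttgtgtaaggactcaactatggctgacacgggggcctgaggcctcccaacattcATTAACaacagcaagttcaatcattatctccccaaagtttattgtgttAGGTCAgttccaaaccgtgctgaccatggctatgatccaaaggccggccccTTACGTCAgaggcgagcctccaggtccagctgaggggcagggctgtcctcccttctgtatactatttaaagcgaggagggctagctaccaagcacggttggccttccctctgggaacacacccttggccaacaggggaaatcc
A set of 5 motifs was searched on both strands, none of which overlapped another in these windows. They were TNACGTCA (cAMP response element, found in 3.25% of 33469 rat promoter windows), AGGTCA (nuclear receptor half-site, 16.2%), GTTAAT (HNF1 half-site, 7.45%), CACGTG (E-box, 6.42%) and TATAAA (14.2%). The Pck1 window held TTACGTCA 93 bases before the start, AGGTCA 144 bases before it and GTTAAT, read on the minus strand, 192 bases before it. The Slc5a1 window held CACGTG 200 bases before the start, and the Slc2a2 window held AGGTCA at 139 and at 88 bases before it. None of these letters occurred in the Slc5a2, Slc2a5 or Fbp1 windows. These matches describe the letters of the window and were not tested as binding sites.

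The arrays fell into 2 classes by spike-in signal, and the labels do not say what these classes stand for. The spike-in transcript cre, which is mixed in before hybridisation and read by 4 probe sets, had a geometric mean signal of 14700 to 15700 on 5 arrays and 10200 to 12200 on the other 7. The higher class held lean control arrays 1 and 2, lean rosiglitazone arrays 1 and 2 and obese control array 1, and all 3 obese rosiglitazone arrays were in the lower class, so the class moved with body type. When added to the model as a term, the class was itself called for 129 of 18625 probe sets, or 0.693%. Proximal tubule markers were abundant on every array, as the tissue label requires. The signals of 17 such genes summed to 93731 to 95451 on obese rosiglitazone arrays, 93113 to 106326 on obese control arrays, 115899 to 136575 on lean rosiglitazone arrays and 113892 to 138848 on lean control arrays. Obese and lean arrays did not overlap in this sum, and its part in the results below was not tested. Over the arrays, 5 skeletal muscle genes summed to at most 738 and 3 leukocyte genes to at most 718 on any array.

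Between obese and lean rats over both diets, 2 of the 9 probe sets passed the test, with Slc5a2 higher and Slc5a1 lower in obese rats. Slc5a2 passed the filter on dim probe sets only through the obese groups. Its test was therefore bound to favour a difference, and its call is counted here as a description only. A probe set was called when the Benjamini-Hochberg adjusted p of limma was under 0.05. Over the whole array 14.3% of probe sets were called in this comparison, so 2 of 9 is a share near the background. The median log2 change of the 9 was 0.01, against 0.03 for all probe sets tested. None of the 9 was called on the control diet alone or on rosiglitazone alone, where 4.74% and 5% of all probe sets were called. An unadjusted p under 0.05 was found for 1 of the 9 on the control diet and 2 on rosiglitazone. Over all probe sets these shares were 18.9% and 19.7%. Obese and lean arrays did not overlap for 1 of the 9 on the control diet, Slc5a2, against 25.5% of all probe sets. On rosiglitazone they did not overlap for 2 of the 9, Slc5a1 and Slc2a5, against 23.3%, although for Slc2a5 the closest obese and lean arrays both read 3044 and differed only in further digits.

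None of the 9 probe sets was called for rosiglitazone against control diet. In lean rats 0.00537% of all probe sets were called (1 probe set). There 0 of the 9 had an unadjusted p under 0.05, against 4.79% of all probe sets. In obese rats 0.0698% were called (13 probe sets), and 1 of the 9, Slc2a5, had an unadjusted p under 0.05, against 4.92% of all. Over both body types 0.0591% were called (11 probe sets). Of the 9, 1 Slc2a4 probe set had an unadjusted p under 0.05, against 5.08% of all. The difference in the rosiglitazone effect between obese and lean rats was called for 0% of probe sets by limma. An unadjusted p under 0.05 was found for 802 probe sets, Slc2a5 among them. This was 4.31% of all tested, no more than that threshold gives with no effect. Rosiglitazone and control arrays did not overlap for 1 of the 9 in obese rats, Slc2a5, against 11.9% of all probe sets, and for 0 of the 9 in lean rats, against 8.54%.

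**Figure D1:**
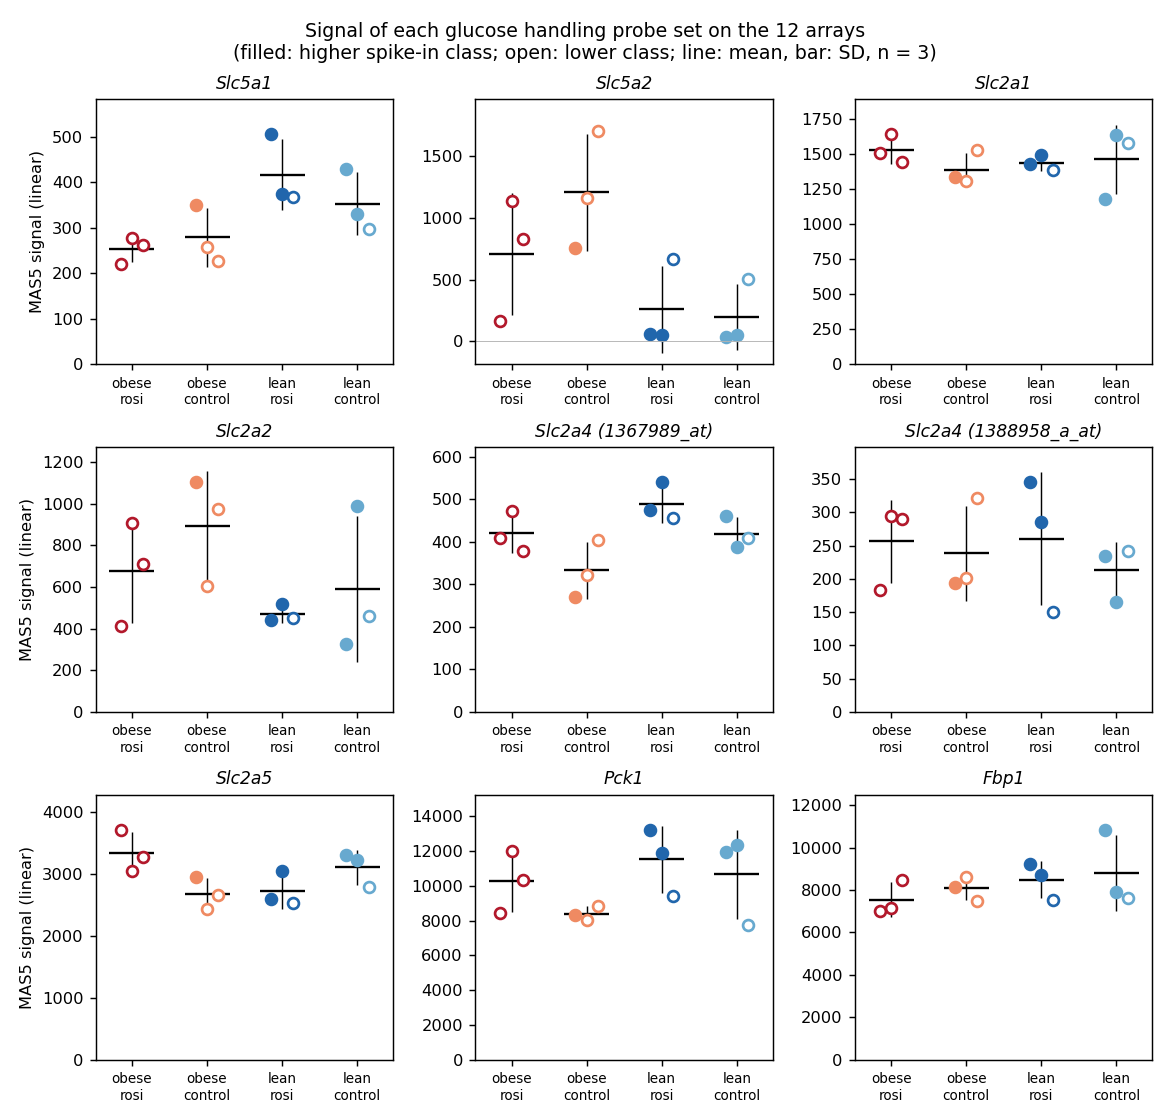
MAS5 signal of each of the 9 probe sets (y axis, linear, from 0) on the 12 arrays, by group (x axis), with the mean as a line and the SD as a bar (n = 3). Filled points are arrays of the higher spike-in class and open points those of the lower class; 4 lean arrays, all filled, sit at 36.5 to 57.6 for Slc5a2.

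Slc5a2, the main luminal glucose transporter (probe set 1368414_at), had the largest SE of the 9 probe sets. Its signal was 165, 1134 and 829 in obese rats on rosiglitazone and 759, 1163 and 1704 in obese rats on control diet, against 57.6, 53.8 and 667 in lean rats on rosiglitazone and 36.5, 54 and 502 in lean rats on control diet. Every obese control array was above every lean control array, whereas on rosiglitazone the groups overlapped, obese rosiglitazone array 1 being below lean rosiglitazone array 3. The means were 709 ± 496 in obese rosiglitazone rats, 1208 ± 474 in obese control rats, 259 ± 353 in lean rosiglitazone rats and 197 ± 264 in lean control rats (SD, n = 3 each). In both lean groups the SD exceeded the mean.

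Over both diets Slc5a2 rose in obese rats by a log2 change of 2.56 (SE 0.74, 95% interval 0.92 to 4.19, limma adjusted p = 0.0414). Its mean log2 signal was 9.13 in obese rosiglitazone rats and 10.18 in obese control rats, against 7.25 in lean rosiglitazone rats and 6.95 in lean control rats. Both lean means lay under the filter level of 7.32, so Slc5a2 passed the filter only through the obese groups and the test was bound to favour a difference. On the 4 lowest lean arrays only 15.4% to 21.2% of probe sets were dimmer. The log2 changes of Slc5a2 were computed with these arrays, so their size is uncertain. The change was 3.23 on the control diet (SE 1.05, adjusted p = 0.116) and 1.88 on rosiglitazone (SE 1.05, adjusted p = 0.361), and neither passed alone. Rosiglitazone against control gave -1.05 in obese rats (95% interval -3.36 to 1.25) and 0.29 in lean rats (-2.01 to 2.6). These intervals are wide enough to hold large changes in either direction.

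The call for Slc5a2 moved with the spike-in class. The 4 lowest signals, 36.5 to 57.6, were those of the 4 lean arrays in the higher class, while the 2 lean arrays in the lower class read 502 and 667. The single obese array in the higher class read 759, and the 5 obese arrays in the lower class read 165 to 1704. The class term itself had a log2 coefficient of -2.41 (higher minus lower class, SE 0.51, adjusted p = 0.0548). With the class in the model the obese minus lean change over both diets was 1.35 (SE 0.49, adjusted p = 0.1). Within the lower class, where each lean group is a lone array, it was 0.59. On the control diet alone it was 2.43 with the class in the model (SE 0.62, adjusted p = 0.0403), 3.68 within the higher class (1 obese against 2 lean control arrays) and 1.46 within the lower class (2 obese against 1 lean). The within-class values rest on groups of a lone array and are given with no test. On rosiglitazone it was 0.28 with the class in the model, which was not called. Within the lower class it was -0.29, with a lone lean rosiglitazone array and no test. The call over both diets was also lost when any of 9 single arrays was left out (change 2.25 to 2.7, adjusted p 0.0686 to 0.106). It was kept without obese rosiglitazone array 1, lean rosiglitazone array 3 or lean control array 3 (adjusted p = 0.0276, 0.00955 and 0.0101).

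**Figure D2:**
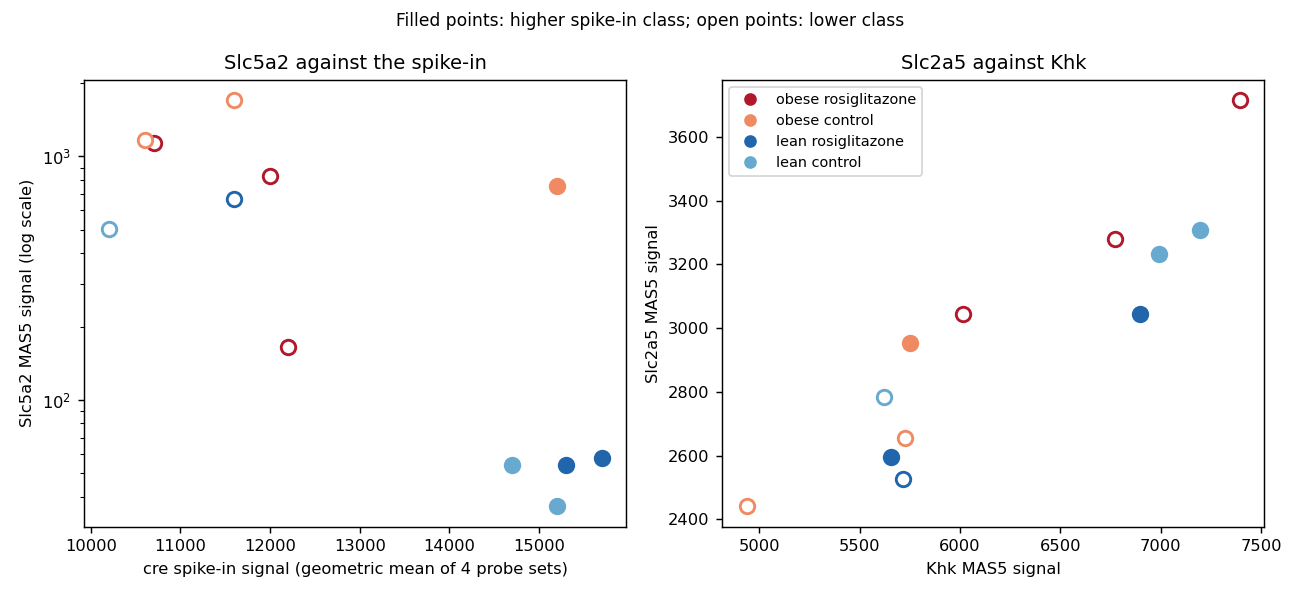
Left, Slc5a2 signal (log axis) against the geometric mean signal of the 4 cre spike-in probe sets; right, Slc2a5 signal against Khk signal, with axes that do not start at 0. Each point is 1 array, coloured by group and filled for the higher spike-in class; the 4 lean arrays at 14700 to 15700 on the left sit at 36.5 to 57.6.

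Slc5a1, the transporter that recovers the remaining glucose (probe set 1369759_at), was lower in obese rats. Its signal was 221, 277 and 261 in obese rats on rosiglitazone and 350, 258 and 227 in obese rats on control diet, against 506, 375 and 367 in lean rats on rosiglitazone and 430, 330 and 298 in lean rats on control diet. On rosiglitazone all obese arrays were below all lean arrays, and on control diet only obese array 1 reached into the lean range. The means were 253 ± 28.6 in obese rosiglitazone rats, 278 ± 63.9 in obese control rats, 416 ± 78.3 in lean rosiglitazone rats and 353 ± 68.9 in lean control rats (SD, n = 3 each).

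Over both diets Slc5a1 fell in obese rats, with a log2 change of -0.50 (SE 0.14, 95% interval -0.80 to -0.21, limma adjusted p = 0.0257). It was -0.68 on rosiglitazone (SE 0.2, adjusted p = 0.0641) and -0.33 on control diet (SE 0.2, adjusted p = 0.39), and the difference between these effects was -0.34 (SE 0.28, adjusted p = 0.992). With the spike-in class in the model Slc5a1 was at -0.33 over both diets (adjusted p = 0.152), which did not pass. Within the lower class it was at -0.40, given with no test since each lean group there is a lone array. The call was also lost without obese rosiglitazone array 1 (adjusted p = 0.0587), obese control array 2 (0.0613), obese control array 3 (0.0699), lean rosiglitazone array 1 (0.0638) or lean control array 1 (0.0677). The direction was the same in each of these fits. Rosiglitazone against control gave -0.11 in obese rats and 0.23 in lean rats (SE 0.2 each, adjusted p = 0.999 and 0.981).

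On the blood side, Slc2a2 (probe set 1387228_at) read 412, 908 and 710 in obese rats on rosiglitazone and 1106, 604 and 977 in obese rats on control diet, against 440, 520 and 452 in lean rats on rosiglitazone and 327, 990 and 460 in lean rats on control diet. The obese means were above the lean ones on both diets, but the arrays overlapped, lean control array 2 standing well above the other lean arrays. The log2 change over both diets was 0.57 (SE 0.26, 95% interval 0.01 to 1.12, adjusted p = 0.173), which did not pass the test. Without lean control array 2 it was 0.79 and did pass (adjusted p = 0.0256). Rosiglitazone against control gave -0.42 in obese rats and -0.17 in lean rats for Slc2a2 (SE 0.36 each), which was within the spread.

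Slc2a1, the transporter of later tubule segments and of many other cell types (probe set 1370848_at), did not differ between groups beyond the spread of the arrays. It read 1511, 1646 and 1442 in obese rats on rosiglitazone and 1338, 1306 and 1531 in obese rats on control diet, against 1431, 1498 and 1385 in lean rats on rosiglitazone and 1182, 1636 and 1579 in lean rats on control diet. The ranges of all 4 groups overlapped. The obese minus lean change of Slc2a1 over both diets was 0.01 (SE 0.09, 95% interval -0.17 to 0.2) and 0.14 was the rosiglitazone effect in obese rats (SE 0.12).

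Slc2a5, the fructose transporter (probe set 1368460_at), had its highest mean in obese rats on rosiglitazone. Its signal was 3716, 3044 and 3280 in obese rats on rosiglitazone and 2953, 2440 and 2655 in obese rats on control diet, against 2595, 3044 and 2527 in lean rats on rosiglitazone and 3309, 3232 and 2783 in lean rats on control diet. Every obese rosiglitazone array was above every obese control array, while in lean rats the groups overlapped and the treated mean was the lower one. The means were 3347 ± 341 in obese rosiglitazone rats, 2683 ± 258 in obese control rats, 2722 ± 281 in lean rosiglitazone rats and 3108 ± 284 in lean control rats (SD, n = 3 each).

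The rosiglitazone effect on Slc2a5 was 0.32 in obese rats (log2, SE 0.11, unadjusted p = 0.0119, limma adjusted p = 0.728) and -0.19 in lean rats (SE 0.11, adjusted p = 0.981). The difference between them was 0.51 (SE 0.16, 95% interval 0.18 to 0.84, unadjusted p = 0.00553 by limma), but its adjusted p over all probe sets was 0.992 and it did not pass. Obese minus lean was 0.30 on rosiglitazone (SE 0.11, adjusted p = 0.144) and -0.21 on control diet (SE 0.11, adjusted p = 0.323). With the spike-in class in the model the Slc2a5 obese minus lean change on rosiglitazone was 0.43 and passed (adjusted p = 0.0373). Within the lower class it was 0.40, given with no test since the lean side there is a lone array.

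The gene whose signal followed Slc2a5 most closely among 13956 candidate probe sets was Khk, which encodes ketohexokinase, the enzyme that phosphorylates fructose. Khk read 7394, 6014 and 6770 in obese rats on rosiglitazone and 5750, 4938 and 5727 in obese rats on control diet, against 5658, 6899 and 5717 in lean rats on rosiglitazone and 7196, 6992 and 5620 in lean rats on control diet. As with Slc2a5, all obese rosiglitazone arrays of Khk lay above the obese control arrays. Pearson's r of Slc2a5 and Khk over the 12 arrays was 0.912, and 0.945 after the group means were removed, as a description of arrays that share tissue, group and scaling. Khk itself was not called, with a rosiglitazone effect of 0.30 in obese rats (SE 0.12, adjusted p = 0.914) and -0.11 in lean rats (SE 0.12, adjusted p = 0.988).

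Slc2a4, the insulin-responsive transporter, was read by 2 probe sets whose obese minus lean changes had opposite signs, neither passing the test. Probe set 1367989_at read 409, 472 and 379 in obese rats on rosiglitazone and 270, 323 and 405 in obese rats on control diet, against 474, 541 and 455 in lean rats on rosiglitazone and 461, 387 and 410 in lean rats on control diet. Its obese minus lean change over both diets was -0.28 (SE 0.11, adjusted p = 0.119), and rosiglitazone against control over both body types gave 0.28 (SE 0.11, unadjusted p = 0.0268 by limma, adjusted p = 0.915). Probe set 1388958_a_at read 184, 295 and 290 in obese rats on rosiglitazone and 194, 201 and 321 in obese rats on control diet, against 346, 285 and 150 in lean rats on rosiglitazone and 234, 166 and 242 in lean rats on control diet. It gave 0.08 for obese minus lean (SE 0.21, adjusted p = 0.851) and 0.16 for rosiglitazone (SE 0.21, adjusted p = 0.999), so neither Slc2a4 probe set passed.

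Fat cell markers moved across the same groups. The signals of 8 such genes summed to 5776 to 7171 on obese rosiglitazone arrays, 2762 to 3216 on obese control arrays, 11183 to 20543 on lean rosiglitazone arrays and 4643 to 7768 on lean control arrays. In large part the sum followed Fabp4, which averaged 3250 ± 747, 403 ± 162, 5154 ± 1836 and 1514 ± 774 in these groups. Cidec moved less, at 1454 ± 72.7 in treated and 1246 ± 134 in untreated obese rats. Over both diets 6 of the 7 that passed the filter fell in obese rats. By probe set this was 6 of 8, against 14.3% of all probe sets called. Across body types 2 of the 7 rose with rosiglitazone, Fabp4 by 2.42 (limma adjusted p = 0.00324) and Ucp1 by 2.10 (adjusted p = 0.0456). By probe set this was 2 of 8, against 0.0591% of all probe sets called. The Ucp1 call was lost in 15 of 21 alternatives, 9 of them single arrays left out (adjusted p up to 0.183), and Ucp1 averaged 14.6 in obese control rats, a level near background. Of the defining markers Lep was near background at mean signals of 69.1 to 85.4, while Adipoq read 586 ± 51.9 in obese rosiglitazone rats, 500 ± 125 in obese control rats, 947 ± 210 in lean rosiglitazone rats and 635 ± 41.8 in lean control rats. Slc2a4 and Pck1 are also expressed in fat, and the part of fat RNA in their values was not tested.

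Pck1, phosphoenolpyruvate carboxykinase (probe set 1372264_at), read 8436, 11974 and 10333 in obese rats on rosiglitazone and 8312, 8007 and 8861 in obese rats on control diet, against 13217, 11909 and 9426 in lean rats on rosiglitazone and 11936, 12324 and 7726 in lean rats on control diet. The obese control arrays were the most uniform, and lean control array 3 was the lowest of the 12. The means were 10247 ± 1771 in obese rosiglitazone rats, 8393 ± 433 in obese control rats, 11517 ± 1925 in lean rosiglitazone rats and 10662 ± 2550 in lean control rats (SD, n = 3 each). The obese minus lean change of Pck1 was -0.24 (SE 0.12, 95% interval -0.51 to 0.03, adjusted p = 0.227), and rosiglitazone against control gave 0.27 in obese rats and 0.13 in lean rats (SE 0.18 each).

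Pck1 also moved with the spike-in class. Obese minus lean over both diets was -0.07 with the class in the model (adjusted p = 0.75). Within the lower class, where each lean group is a lone array, it was 0.11, given with no test. Without lean control array 3, a lower class array, it was -0.35 and passed (adjusted p = 0.0306). The gene that followed Pck1 most closely was G0s2, an inhibitor of triglyceride breakdown, at r = 0.912 over the 12 arrays and 0.923 after removal of the group means. G0s2 averaged 1282 ± 466 in obese rosiglitazone rats, 884 ± 93.1 in obese control rats, 1928 ± 616 in lean rosiglitazone rats and 1854 ± 648 in lean control rats.

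Fbp1, fructose-1,6-bisphosphatase (probe set 1368077_at), read 6999, 7143 and 8483 in obese rats on rosiglitazone and 8157, 8620 and 7483 in obese rats on control diet, against 9230, 8706 and 7518 in lean rats on rosiglitazone and 10845, 7930 and 7623 in lean rats on control diet. All 4 groups overlapped, with lean control array 1 the highest. Obese minus lean over both diets was -0.14 for Fbp1 (SE 0.09, 95% interval -0.33 to 0.06, adjusted p = 0.356), and rosiglitazone gave -0.10 in obese rats and -0.04 in lean rats (SE 0.13 each).

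**Figure D3:**
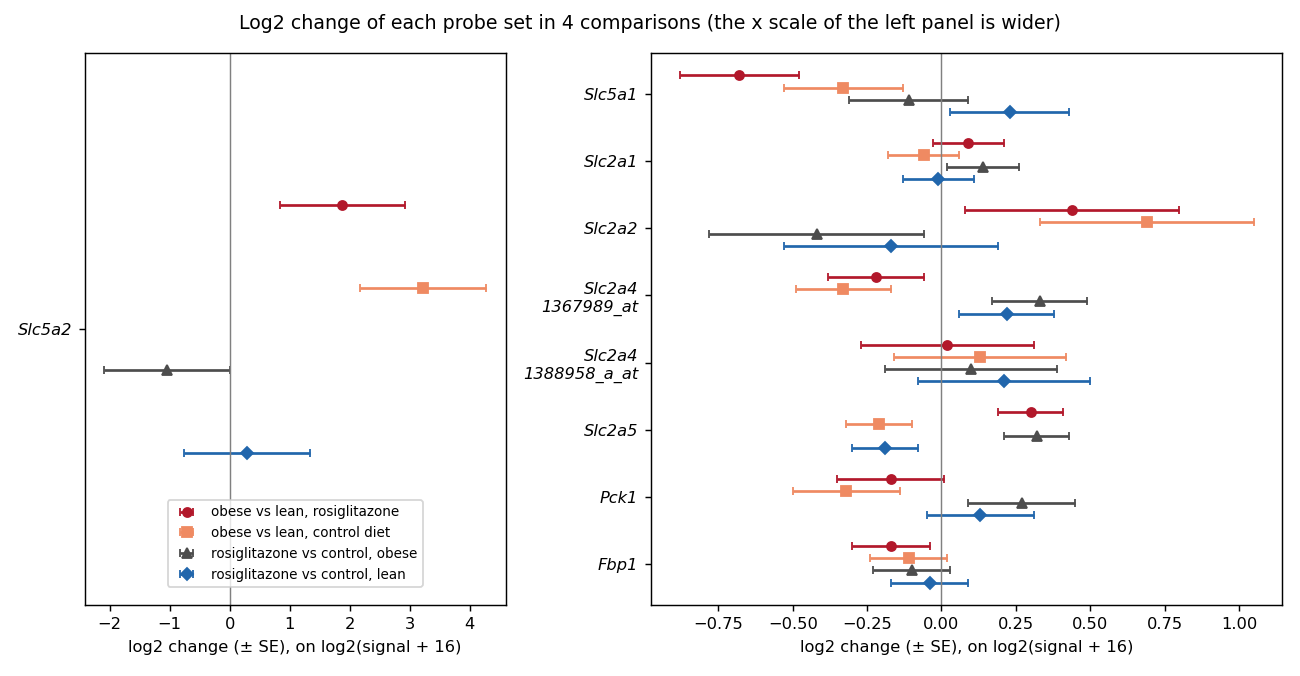
Log2 change (x axis, with SE bars, on log2 of signal plus 16) of the 9 probe sets in 4 comparisons, with Slc5a2 in a panel of its own on a wider axis. Slc5a2 at 3.23 on the control diet and 1.88 on rosiglitazone lies far outside the range of the others. Its size is uncertain, since 4 lean arrays, all of the higher spike-in class, were dim for it. Slc2a5 lies on opposite sides of 0 for rosiglitazone in obese and in lean rats (0.32 and -0.19).

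Among other genes of the pathway, a list of further Slc5a and Slc2a family genes and Pdzk1ip1 had 6 tested genes. They were Slc2a8, Slc2a9, Slc2a13, Slc5a3, Slc5a11 and Pdzk1ip1, and not all of these carry hexoses. In obese rats over both diets 0 of the 6 were higher and 1 lower, with a median log2 change of -0.10 over their probe sets. By probe set 1 of 7 was called, a share near the 14.3% of all probe sets called. The lower count was 0 to 1 genes over 22 alternatives. The 1 was Slc2a13, a proton-coupled inositol transporter, at -0.56 (SE 0.11, adjusted p = 0.00317) by one probe set and -0.26 (adjusted p = 0.069) by the other. Slc2a13 averaged 1093 ± 66.2 in obese rosiglitazone rats, 845 ± 81.5 in obese control rats, 1543 ± 322 in lean rosiglitazone rats and 1339 ± 219 in lean control rats by the first. Pdzk1ip1 (MAP17), a small membrane protein that SGLT2 needs for activity, was not called. It averaged 4017 ± 179 in obese rosiglitazone rats, 4839 ± 665 in obese control rats, 4657 ± 212 in lean rosiglitazone rats and 4945 ± 284 in lean control rats, with an obese minus lean change of -0.13 (SE 0.07, adjusted p = 0.251).

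The other gluconeogenic genes had 1 of 21 tested genes higher and 5 lower in obese rats over both diets, with a median of -0.04. By probe set 7 of 27 were called (1 higher and 6 lower), against 14.3% of all probe sets (1432 higher and 1233 lower), and over 22 alternatives 1 to 7 genes were lower. The lower ones included Glud1, the glutamate dehydrogenase that feeds glutamine carbon into gluconeogenesis. By its brighter probe set Glud1 averaged 5514 ± 553 in obese rosiglitazone rats and 5563 ± 201 in obese control rats, against 7657 ± 673 in lean rosiglitazone rats and 7449 ± 605 in lean control rats. The change was -0.45 (SE 0.07, adjusted p = 0.000729), and -0.22 by its other probe set (adjusted p = 0.0177). Slc25a10 and Slc25a11, the mitochondrial dicarboxylate and oxoglutarate carriers, fell by 0.25 and 0.27, Gk (glycerol kinase) by 0.24 and Mdh2 (mitochondrial malate dehydrogenase) by 0.20. For Slc25a10 and Gk a further probe set did not pass, at 0.18 for Slc25a10 and -0.24 for Gk. Ldha, a lactate dehydrogenase subunit, rose by 0.34 (adjusted p = 0.0291). G6pc3 and Slc37a4, the ubiquitous glucose-6-phosphatase and the transporter that delivers its substrate, did not pass, at 0.31 (adjusted p = 0.113) and 0.13 (adjusted p = 0.235), nor did Pck2, the mitochondrial isoform of Pck1, at 0.15 (adjusted p = 0.294). After quantile normalization of the arrays this list had 4 genes higher and 3 lower and its median turned to 0.09.

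Genes of glycolysis and fructose use had 3 of 15 tested genes higher and 1 lower in obese rats, with a median of 0.16. By probe set 3 of 25 were higher and 1 lower, a share near the 14.3% of all probe sets called. Over 22 alternatives the number higher was 0 to 5 and the median 0.03 to 0.21. Hk1, a hexokinase, averaged 2945 ± 181 in obese rosiglitazone rats and 2922 ± 457 in obese control rats, against 2179 ± 119 in lean rosiglitazone rats and 2235 ± 548 in lean control rats, a change of 0.42 (SE 0.11, adjusted p = 0.0185). Pfkp, a phosphofructokinase subunit, rose by 0.35 (adjusted p = 0.0213) and Pfkfb3, which makes and breaks fructose-2,6-bisphosphate, by 0.37 (adjusted p = 0.0305) in 1 of its 2 tested probe sets. Tkfc, the triokinase that follows Khk in fructose breakdown, fell by 0.38 (adjusted p = 0.00334), and its second probe set stood at -0.07 (adjusted p = 0.819). Khk stood at -0.06 (adjusted p = 0.686).

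Regulators of renal glucose handling had 0 of 12 tested genes higher and 4 lower in obese rats, with a median of -0.05. By probe set 0 of 22 were higher and 6 lower, against 14.3% of all probe sets called. Over 22 alternatives 2 to 4 genes were lower. Hnf4a, a nuclear receptor that maintains proximal tubule genes, was lower by all 3 of its probe sets. The probe set 1382496_at read 894, 1022 and 906 in obese rats on rosiglitazone and 1015, 1017 and 884 in obese rats on control diet, against 1471, 1860 and 1534 in lean rats on rosiglitazone and 1482, 1481 and 1213 in lean rats on control diet. No obese array reached the lean range on either diet. The Hnf4a changes were -0.64 (SE 0.08, adjusted p = 0.000256) by that probe set, -0.83 (adjusted p = 0.00033) by 1369289_at and -0.34 (adjusted p = 0.00149) by 1392969_at. Irs2, an insulin receptor substrate, fell by 0.76 (adjusted p = 0.0232), averaging 616 ± 102 in obese rosiglitazone rats, 619 ± 145 in obese control rats, 913 ± 362 in lean rosiglitazone rats and 1295 ± 414 in lean control rats. Klf15, a transcription factor of amino acid breakdown, fell by 0.34 (adjusted p = 0.0318) in 1 of 2 tested probe sets and Ppargc1a, a coactivator of gluconeogenic genes in liver, by 0.35 (adjusted p = 0.0382) in 1 of 3 probe sets. Foxo1, a further activator of gluconeogenic genes in liver, stood at 0.12 (adjusted p = 0.451).

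Proximal tubule markers had 0 of 16 tested genes higher and 10 lower in obese rats, with a median of -0.36. By probe set 0 of 21 were higher and 11 lower, against 14.3% of all probe sets called. The lower ones included Anpep, a brush border peptidase, at -0.70, Slc13a3, a dicarboxylate transporter, at -0.89 and Aqp1, a water channel, at -0.45 and -0.50 by its 2 probe sets. After quantile normalization 6 were lower and the median was -0.16. The lower Slc5a1 signal stood beside lower signals of most proximal tubule markers, and the higher Slc5a2 signal ran opposite to that majority. Over both diets neither transporter was called with the spike-in class in the model. Not all markers of the list fell. On the control diet Slc4a4, by its brighter probe set, averaged 1535 ± 92.5 in obese and 753 ± 125 in lean rats. Slc7a9 averaged 2362 ± 157 and 1888 ± 184 there. On rosiglitazone the obese and lean means were 906 ± 476 and 777 ± 110 for Slc4a4. For Slc7a9 they were 1615 ± 554 and 1895 ± 138. In the comparisons of rosiglitazone with control diet 0 genes of these 5 lists were called.

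**Figure D4:**
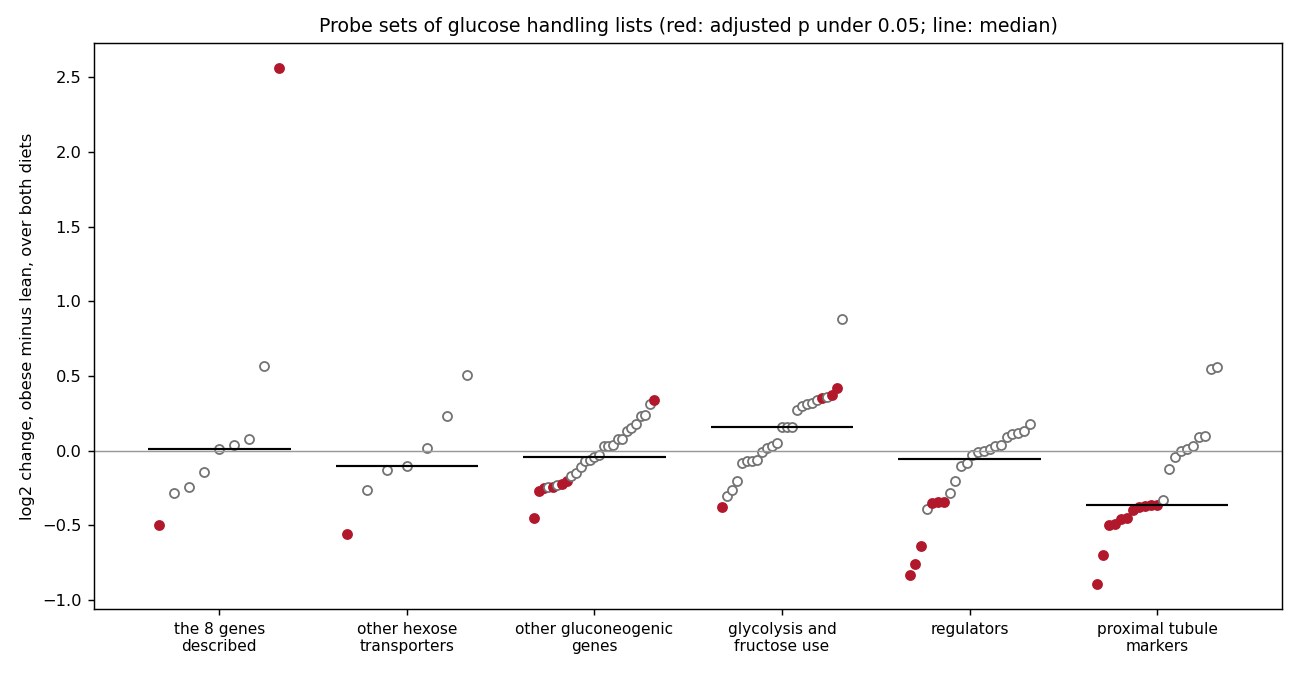
Log2 change of obese minus lean over both diets (y axis) for each probe set of the 8 genes and of 5 lists (x axis), ordered within a list by value, with the list median as a line. The list labelled other hexose transporters also holds Slc2a13, an inositol transporter, and Pdzk1ip1. Red points passed an adjusted p of 0.05, and 11 of the proximal tubule probe sets are red and below 0. Slc5a2 stands alone at 2.56, a change computed with dim lean arrays and not called with the spike-in class in the model.

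Over the 12 arrays the gene most like Slc5a2 was Cyfip2, a regulator of actin assembly, at r = 0.969, also 0.969 after the group means were removed, followed by Prps2 at 0.948. Cyfip2 read 2050, 2417 and 2369 in obese rats on rosiglitazone and 2203, 2446 and 2469 in obese rats on control diet, against 1674, 1568 and 2308 in lean rats on rosiglitazone and 1462, 1590 and 1990 in lean rats on control diet. As with Slc5a2, the lean arrays of the higher spike-in class were the 4 lowest. The genes most like Slc5a1 were Sdc2, a syndecan (r = 0.957), and Slc25a5, a mitochondrial adenine nucleotide carrier (0.955). The highest values for the other genes were 0.903 for Slc2a2 with Chmp6, 0.954 for Slc2a4 with Sgf29, 0.844 for Slc2a1 with Aagab and 0.954 for Fbp1 with Mzt2b. These are the highest of 13956 correlations each (13955 for Slc2a4) over arrays that share groups and spike-in class, and are given as a description. Between the 2 sodium-coupled transporters themselves r was -0.643, and -0.377 after the group means were removed.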

How the data were processed

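Kidney RNA of 12 rats was measured on Affymetrix arrays, 1 per rat, 3 per group. Trizol extraction and biotin labelling are stated per the labels' protocols. The authors deposited linear signal intensity, computed with MAS5 per the submitters' processing notes; its version is not given in the sources used here. Trimmed means of the arrays (2% left out at each end) lay between 500.12 and 500.15, so no normalization was added. Array medians were 204 to 239, and precision is limited by how few arrays there are.

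Of 31099 probe sets, 57 controls were left out. Of the remaining 31042, 20826 had 1 symbol, 436 several and 9780 none in the annotation, and 20758 were matched to RefSeq (GRCr8) with 0 symbols updated. Values were log2(signal + 16), and probe sets with a mean log2 value under the 40th percentile, 7.32, were dropped, leaving 18625. A linear model of 4 group means (limma 3.58.1, statmod 1.5.0, R 4.3.3, eBayes with trend and robust, 8 residual degrees of freedom) gave 7 comparisons, each adjusted by Benjamini-Hochberg over all 18625. Fold changes on log2(signal + 16) understate changes of dim probe sets. The labels name separate rats and give no pairing by replicate number, so the arrays were not treated as paired. After group means were removed, same-numbered arrays correlated at -0.179 to 0.182 (median 0.0697). Other arrays correlated at -0.223 to 0.214 (median -0.0234). The fit was tested on simulated data.

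Named genes were the 8 members, up to 6 called genes per pathway list by smallest p, a fixed set always looked up, and the 2 genes most correlated with each member. Marker genes were named from their fixed lists. A list's gene was counted as called if any of its probe sets was. The members and lists were chosen with earlier results of these data known. Spike-in classes were divided at the widest gap in cre signal. Alternatives were other offsets (1 and 64), filters, normalizations, eBayes settings, the replicate number as a block, the spike-in class and leaving out each array. Applying them to the list genes was decided after seeing the data. Fits within a spike-in class were among the alternatives. They hold groups of a lone array, so ranges of counts over the alternatives are a description. G6pc1 is not described, since its probe sets carry several symbols.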

Additional observations from a re-analysis of the deposited data

How the results depend on the processing

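Across the alternatives, 1291 of the recomputed changes of the 9 probe sets kept their direction and their side of the threshold or stayed uncalled on the same side of 0, 66 uncalled ones turned sign or moved, 19 lost the call, 7 gained it and 0 called ones reversed. The count of called probe sets over both diets, 2, was 0 with the filter at the 60th percentile, where 6 of the 9 were tested. It was 1 with median centring (Slc5a2 lost, 2.53, adjusted p = 0.0791) and 0 with a term for spike-in class. It was 0 to 3 when single arrays were left out. The stricter filter removed both called probe sets, Slc5a1 and Slc5a2, so the count of 0 there is not a lost call. The cause of the losses under the other settings was not tested. With the class term the estimates themselves moved, to 1.35 for Slc5a2 (SE 0.49) and -0.33 for Slc5a1 (SE 0.14). On the control diet the count, 0, was 1 with the class as a covariate and 0 to 1 with single arrays left out (Slc5a2 at 4.26, adjusted p = 0.0337, without lean control array 3), and on rosiglitazone it was 1 with the class as a covariate (Slc2a5). For the rosiglitazone comparisons and the difference between body types the count was 0 under each alternative run.

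The replicate number was also tried as a block, although the labels give no pairing by number. The count was then 1 on the control diet (Slc5a2, limma adjusted p = 0.0225), 1 on rosiglitazone (Slc5a1, adjusted p = 0.0475) and 2 over both diets. The block changed no other call of the 9. Obese minus lean could not be fitted on rosiglitazone or over both diets within the higher class, which holds no obese rosiglitazone array.

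Over the whole array, the 882 probe sets called on the control diet were 516 with median centring and 548 without the trend and robust options. They were as few as 325 with a single array left out. The 932 called on rosiglitazone were 493 with median centring, 589 without those options and as few as 474 with a single array left out. The 2665 over both diets were 1907 with median centring. Rosiglitazone calls stayed few under every alternative run, at 0 to 23 in lean rats, 0 to 34 in obese rats, and 3 to 20 over both body types. The difference between body types had 0 to 6 calls.

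Among list genes, obese minus lean over both diets reversed for Umod (uromodulin of the thick ascending limb), at 0.08 after quantile normalization against -0.27 as reported by the main settings. Hnf4a (1382496_at and 1392969_at), Glud1 (1387878_at), Anpep, Slc13a3, Aqp1 and Cubn were called under all 22 alternatives, while Mdh2 lost the call in 17, Gk in 12, Ppargc1a in 11, Klf15 and Pfkfb3 in 9 each. Arrays of 3 rats per group limit what can be detected for probe sets as variable as Slc5a2.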

Other observations

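Tubule segments beyond the proximal tubule were read alongside the glucose genes. Of 6 thick ascending limb and distal nephron markers, 2 were higher and 1 lower in obese rats over both diets. By probe set 2 of 7 were higher and 1 lower, against 14.3% of all probe sets called. Slc12a3, the thiazide-sensitive sodium chloride cotransporter of the distal convoluted tubule, averaged 4240 ± 579 in obese rosiglitazone rats and 4745 ± 621 in obese control rats, against 2985 ± 492 in lean rosiglitazone rats and 2953 ± 1043 in lean control rats (SD, n = 3 each), a log2 change of 0.62. Slc12a1, the loop sodium cotransporter, rose by 0.23, a call that was lost in 15 of 22 alternatives. The 1 lower was Umod, also of the thick ascending limb, at -0.27. Umod averaged 16981 ± 749 in obese rosiglitazone rats and 17002 ± 815 in obese control rats. In lean rosiglitazone rats it averaged 20885 ± 2288 and in lean control rats 20303 ± 2266. The signals of the 6 genes summed to 47943 to 54071 on obese rosiglitazone arrays, 50680 to 55373 on obese control arrays, 47597 to 52307 on lean rosiglitazone arrays and 45411 to 53083 on lean control arrays, so the sums overlapped. Aqp2, a collecting duct water channel, averaged 12319 ± 858 in obese rosiglitazone rats, 11917 ± 1256 in obese control rats, 11244 ± 1544 in lean rosiglitazone rats and 12052 ± 674 in lean control rats. Of red blood cell markers, 2 of 2 tested genes were called higher in obese rats on rosiglitazone (median 1.38) and 0 on control diet (median 0.12). Over all probe sets 5% were called on rosiglitazone and 4.74% on control diet. Hbb averaged 9698 ± 2590 in obese rosiglitazone rats, 5999 ± 1193 in obese control rats, 3444 ± 1573 in lean rosiglitazone rats and 6394 ± 2400 in lean control rats, and its call over both diets (0.75) was lost in 11 of 22 alternatives. The difference between the diets was not called for Hbb (1.6, limma adjusted p = 0.992). Of 2 liver markers tested, 1 was lower in obese rats over both diets, where 14.3% of all probe sets were called.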
